A study of Mus musculus with 19 samples.

Results

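The genes that build the last layers of the epidermis lie side by side on mouse chromosome 3, and the late cornified envelope and filaggrin-type genes among them were examined in skin tumours and normal skin. Members were the genes of the deposited count table whose identifier carries a symbol that begins with Lce and a digit, or one of Ivl, Lor, Flg, Flg2, Rptn, Hrnr, Tchh, Tchhl1, Crnn, Crct1, Kprp and Lelp1. The rule found 33 members among 34807 genes: 14 Lce1 genes, 6 Lce3 genes, Lce6a, 7 genes of the S100-fused type (Flg, Flg2, Hrnr, Rptn, Crnn, Tchh, Tchhl1) and 5 others (Lor, Ivl, Crct1, Kprp, Lelp1). The series holds 19 RNA libraries, 15 of them from skin tumours of mice and 4 from normal skin, made to compare tumours that began in different cells of the epidermis. The genotype was Ivl:BRAFV600E in 6 tumours (hereafter Ivl tumours), K5:BRAFV600E in 5 (K5 tumours) and K14:BRAFV600E in 4 (K14 tumours), and the labels give the cell type of all 15 as squamous cell carcinoma. The 4 skin samples are labelled WT and normal, and all 19 samples came from female mice. In the tumour groups a Cre recombinase that tamoxifen switches on was driven by the Ivl, Krt5 or Krt14 promoter, which turned on the BRAFV600E allele. Per the methods, the inducer was tamoxifen in Ivl models and 4-hydroxytamoxifen in K5 and K14 models, so inducer and promoter differ together. The paper also reports a longer time to tumour onset in the Ivl model. The labels give 7 to 20 weeks as the age of the mice at induction, in words that are the same for the skin samples, and the methods give a narrower range. The age at sampling is not given in the sources used here. The K5 and K14 promoters act in the stem cells of the basal layer, and the Ivl promoter in committed basal and suprabasal cells, so that the promoter of 1 member, Ivl, also defines a group. Bulk tumours were sequenced, with hair follicles, stroma and immune cells included.

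Keratinocytes leave the basal layer, flatten and die as they rise to the surface, and while they do so they replace the plasma membrane with a protein shell called the cornified envelope. Involucrin (Ivl) is laid down early as a scaffold, loricrin (Lor) becomes the bulk of the shell, and the small proteins of the late cornified envelope genes (Lce) are added last, all of them joined by transglutaminases. Profilaggrin (Flg) and its relatives join an S100-type calcium-binding start to a long repeat region; they are stored in keratohyalin granules and bind keratin filaments, while trichohyalin (Tchh) fills the inner root sheath of the hair follicle. The whole group of neighbouring genes is known as the epidermal differentiation complex.

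All 33 members lay on chromosome 3 between 92080271 and 93471980 of GRCm38, a stretch of 1.392 Mb, with Lor (ENSMUSG00000043165) at one end and Tchhl1 (ENSMUSG00000027908) at the other. Every one of them passed the filter of at least 5 counts in at least 1 library, as did 32031 of the 34807 genes. Libraries held 45715309 to 72609771 counts. Levels are given as CPM, counts brought to a common library size by edgeR's TMM factors, and tests are edgeR's quasi-likelihood test with Benjamini-Hochberg adjustment over all genes tested. The authors had adjusted the counts for a sequencing batch, and 4 libraries, Ivl tumours 1, 2 and 3 and K5 tumour 1, stood apart. Over genes above 2 CPM, these 4 and the other 15 libraries had means less than 0.1 log2 apart for 96.6% of 13954 genes and for 78.1% of 32 members, although 3 of the 4 are Ivl tumours and none is skin. Some results are therefore also given within the other 15 (3 Ivl, 4 K5 and 4 K14 tumours and 4 skin samples). Most fold changes of single members are given over all 19 libraries only. Some member genes share sequence: of all 101-base stretches of their exons, 24.0% in Lce3c, 27.9% in Lce3d, 36.3% in Lce3e and 42.9% in Lce3f occur in another Lce3 gene, so counts may be split among these 4. Lelp1, Flg, Hrnr, Rptn and Tchh overlap other annotated genes, and whether the counting used strand is not given in the sources used here.

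The DNA just upstream of the start sites differed between the families. The sequences below show the members with the largest and the smallest change within each family in K5/K14 tumours against skin, and Flg with Flg2, a pair chosen after their values were seen. Each line holds the 130 bases before the RefSeq start, 5′ to 3′ on the strand of the gene. Capitals mark 3 motifs: TGANTCA, with any base at N, TATAAA, the core of a TATA box, and ATAAAAG, a variant of it. ATAAAAG was searched after the sequences had been seen. TGANTCA is looser than the element of AP-1 factors, which is TGACTCA or TGAGTCA. In the lines below, the gene Ivl has TGACTCA, Rptn has TGATTCA, and Flg and Flg2 have TGAATCA. All of these were counted as TGANTCA, and binding of AP-1 factors was not tested.
Lce1g: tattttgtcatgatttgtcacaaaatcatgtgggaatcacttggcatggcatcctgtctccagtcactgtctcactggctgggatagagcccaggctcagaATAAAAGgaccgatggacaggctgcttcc
Lce1m: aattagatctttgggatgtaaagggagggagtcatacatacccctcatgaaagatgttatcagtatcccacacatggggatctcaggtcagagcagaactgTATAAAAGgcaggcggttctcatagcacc
Lce3b: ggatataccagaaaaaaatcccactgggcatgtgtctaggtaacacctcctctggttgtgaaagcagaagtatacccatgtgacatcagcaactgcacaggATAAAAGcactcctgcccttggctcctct
Lce3c: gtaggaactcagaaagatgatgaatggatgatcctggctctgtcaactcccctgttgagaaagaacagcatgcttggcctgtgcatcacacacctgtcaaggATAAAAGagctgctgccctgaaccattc
Ivl: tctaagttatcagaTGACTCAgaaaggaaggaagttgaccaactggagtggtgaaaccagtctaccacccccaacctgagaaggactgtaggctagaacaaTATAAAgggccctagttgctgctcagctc
Lelp1: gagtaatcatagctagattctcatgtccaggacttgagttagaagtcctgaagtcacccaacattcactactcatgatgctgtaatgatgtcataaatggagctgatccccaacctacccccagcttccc
Rptn: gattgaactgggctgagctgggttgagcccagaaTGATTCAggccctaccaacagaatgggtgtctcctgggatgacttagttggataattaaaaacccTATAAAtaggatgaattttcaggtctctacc
Tchh: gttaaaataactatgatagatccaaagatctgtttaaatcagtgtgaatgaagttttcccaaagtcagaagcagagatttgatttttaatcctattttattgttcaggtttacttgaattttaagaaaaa
Flg: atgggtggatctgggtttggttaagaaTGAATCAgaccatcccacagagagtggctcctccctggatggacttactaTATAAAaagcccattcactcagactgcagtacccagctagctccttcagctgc
Flg2: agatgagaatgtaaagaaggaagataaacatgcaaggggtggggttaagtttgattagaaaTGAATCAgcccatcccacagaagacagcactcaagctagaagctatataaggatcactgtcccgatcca

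The stretches lie at chr3:92752339-92752468 for Lce1g, chr3:93019062-93019191 for Lce1m, chr3:92573736-92573865 for Ivl and chr3:92142755-92142884 for Lelp1, all on the minus strand of GRCm38.p6. On the plus strand lie those of Lce3b at chr3:92932849-92932978, Lce3c at chr3:92944356-92944485, Rptn at chr3:93393569-93393698, Tchh at chr3:93442200-93442329, Flg at chr3:93273416-93273545 and Flg2 at chr3:93197143-93197272. RefSeq windows were found for 30 of 33 members and searched over the 250 bases before the start on both strands. TGANTCA occurred in 7 of 30, those of Lor, Ivl, Crnn, Flg2, Flg, Rptn and Tchhl1, that is in 7 of 10 members outside the Lce families and in 0 of 20 Lce genes, against 6.75% of 32851 windows of all genes. ATAAAAG occurred in 16 of 30 members, and in 15 of 20 Lce genes it lay 28 to 30 bases before the start, against 4.83% of all windows with it anywhere. TATAAA, which can overlap ATAAAAG as in Lce1m, occurred in 10 of 30 and in 12.4% of all windows. GGGNGNGG, a motif of the KLF family that is not marked in the lines above, occurred in 3 of 30 and in 45.9% of all windows. Pairs were compared over the 60 bases before the start, at the best ungapped match among shifts of up to 8 bases. Lce1 genes were a median of 61.0% identical (78 pairs), Lce3 genes 55.9% (15 pairs) and Lce1 against Lce3 genes 42.4% (78 pairs). Taking the best shift can raise each of these values. The windows of a family are not independent. These matches describe letters in a window, and members with and without TGANTCA are found among those that rose and those that did not.

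The group as a whole was higher in tumours than in skin. In Ivl tumours 27 of 33 members rose and 1 fell, where 20.4% of all genes tested rose and 15.5% fell. In the merged group of K5 and K14 tumours (K5/K14 tumours, 9 libraries) 27 rose and 2 fell, where 23.2% of all genes rose and 38.9% fell. Members that did not rise were the same 6 in both comparisons, Lelp1, Lce1m, Crnn, Flg2, Tchh and Tchhl1, and the comparisons share the 4 skin samples. The members' median log2 fold change was 3.124 in Ivl and 3.33 in K5/K14 tumours, beside medians of -0.46 and -0.60 over all genes. Bulk RNA does not tell fewer cells of a type from less RNA per cell. The summed level of 15 genes of all keratinocytes (Krt5, Krt14, Trp63 and desmosome genes among them) was 10303 to 15705 CPM in skin. It was higher in tumours, at 33405 to 83535 CPM in Ivl and 60621 to 94919 CPM in K5/K14 tumours. Whether this came from more keratinocytes or from more RNA per cell was not tested. With libraries scaled by these 15 genes, which moves the median of all genes to -1.74 and -1.94, 25 members still rose and 5 fell in Ivl tumours (3.38% and 72.1% of all genes), and 27 rose and 4 fell in K5/K14 tumours (4.53% and 76.4%).

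The groups separated without overlap for most members. All Ivl tumours were above all skin samples for 23 of 33 members (13.2% of all genes) and all below for 1 (9.01%). All K5/K14 tumours were above skin for 27 (16.7%) and below for 0 (24.6%). Ivl tumour 3 was the lowest of all 15 tumours for 23 members and exceeded the highest skin value for 23, whereas each other tumour exceeded it for 27 to 29. Within the 15 libraries 27 members had all Ivl tumours above skin (22.3% of all genes) and 2, Lelp1 and Flg2, had them below (35.4%), and for K5/K14 tumours 27 were above (17.3%) and 1, Flg2, below (28.1%). Of all counts in a library, the members took 0.393% to 0.599% in skin and 0.662% to 2.45% in tumours.

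**Figure D1:**
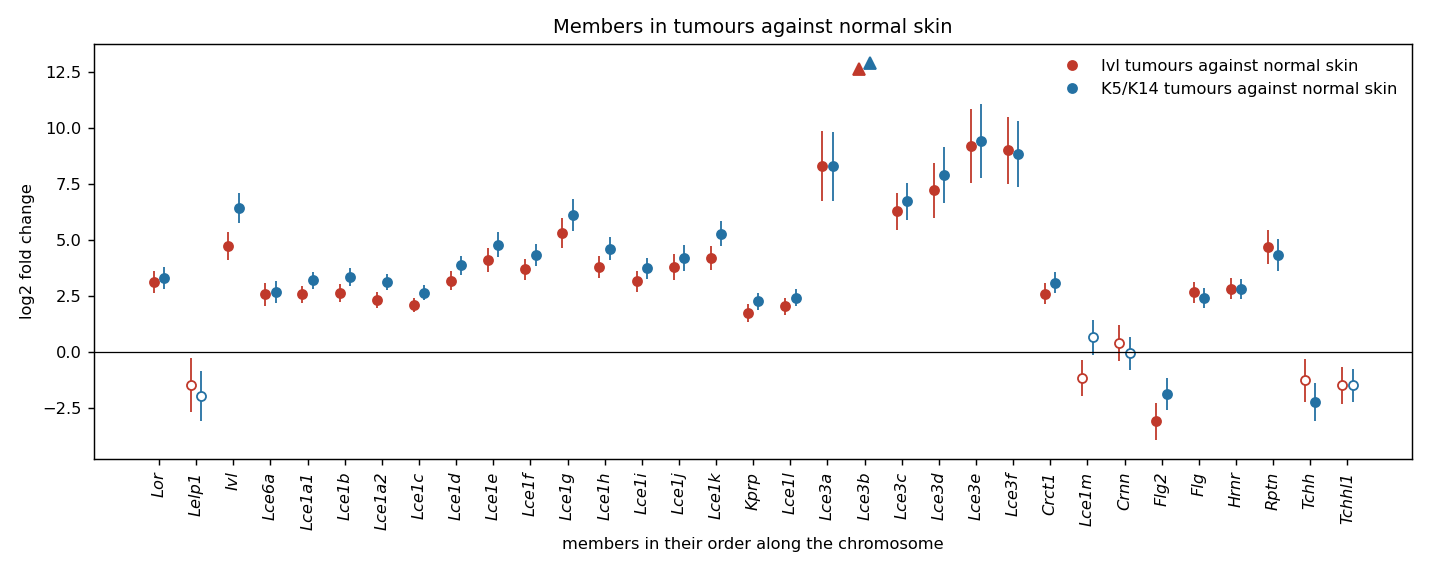
Log2 fold change (y axis, ± SE) of the 33 members in their order along chromosome 3 (x axis), for Ivl tumours and for K5/K14 tumours against normal skin. Filled points passed an adjusted p of 0.05, open points did not, and triangles give Lce3b against an assumed floor of 3 counts in skin. The 6 Lce3 genes lie highest, and Flg2, Tchh, Tchhl1 and Lelp1 lie below 0 in both comparisons.

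Lce3 genes, which code for late envelope proteins and are known to be switched on in injured or inflamed skin, showed the widest gap to skin. Lce3c (ENSMUSG00000045475) stood at 3.02, 4.51, 3.28 and 6.03 CPM in skin samples 1 to 4. Its lowest, median and highest values were 9.86, 404 and 492 CPM in Ivl tumours and 219, 455 and 642 CPM in K5/K14 tumours. All tumours were above all skin samples, with Ivl tumour 3 far below the rest. The log2 fold change was 6.27 ± 0.82 (SE) in Ivl tumours (adjusted p = 2.2e-05) and 6.72 ± 0.83 in K5/K14 tumours (adjusted p = 4.6e-06).

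Lce3b (ENSMUSG00000042031) had no count in any skin sample. In tumours it ranged from 0.352 CPM in Ivl tumour 3 to 513 CPM in K14 tumour 3, and every other tumour was at 66.1 CPM or higher. Against an assumed floor of 3 counts in a skin library, 0.0396 CPM at the shallowest, the mean was 6242-fold higher for Ivl tumours. For K5/K14 tumours it was 7569-fold higher. The skin zeros come from batch-adjusted values and may stand for more than 3 counts, so these folds are not lower bounds. Lce3a, Lce3d, Lce3e and Lce3f reached at most 2.97 CPM in skin and rose as well, with log2 fold changes of 7.21 to 9.18 in Ivl and 7.91 to 9.39 in K5/K14 tumours. Over the 6 genes the median was 8.65 and 8.55, with Lce3b taken against that floor. Skin values of Lce3 genes were 0 in 12 of 24 cases and between 78 and 618 counts in the other 12, with none in between, in a table the authors had adjusted for batch. Fitted folds for the genes with zeros rest on these values. In Ivl tumour 3 the 6 genes lay between 0.352 and 9.86 CPM, close to skin, and the next lowest values of an Ivl tumour, in Ivl tumour 2, lay between 27.9 and 156 CPM. Between the lowest and highest of the K5/K14 tumours, Lce3 genes varied by a median of 3.1 times, about as much as Lce1 genes (2.93 times). Ivl tumours other than tumour 3 still varied, from 156 to 492 CPM for Lce3c and from 27.9 to 335 CPM for Lce3f.

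**Figure D2:**
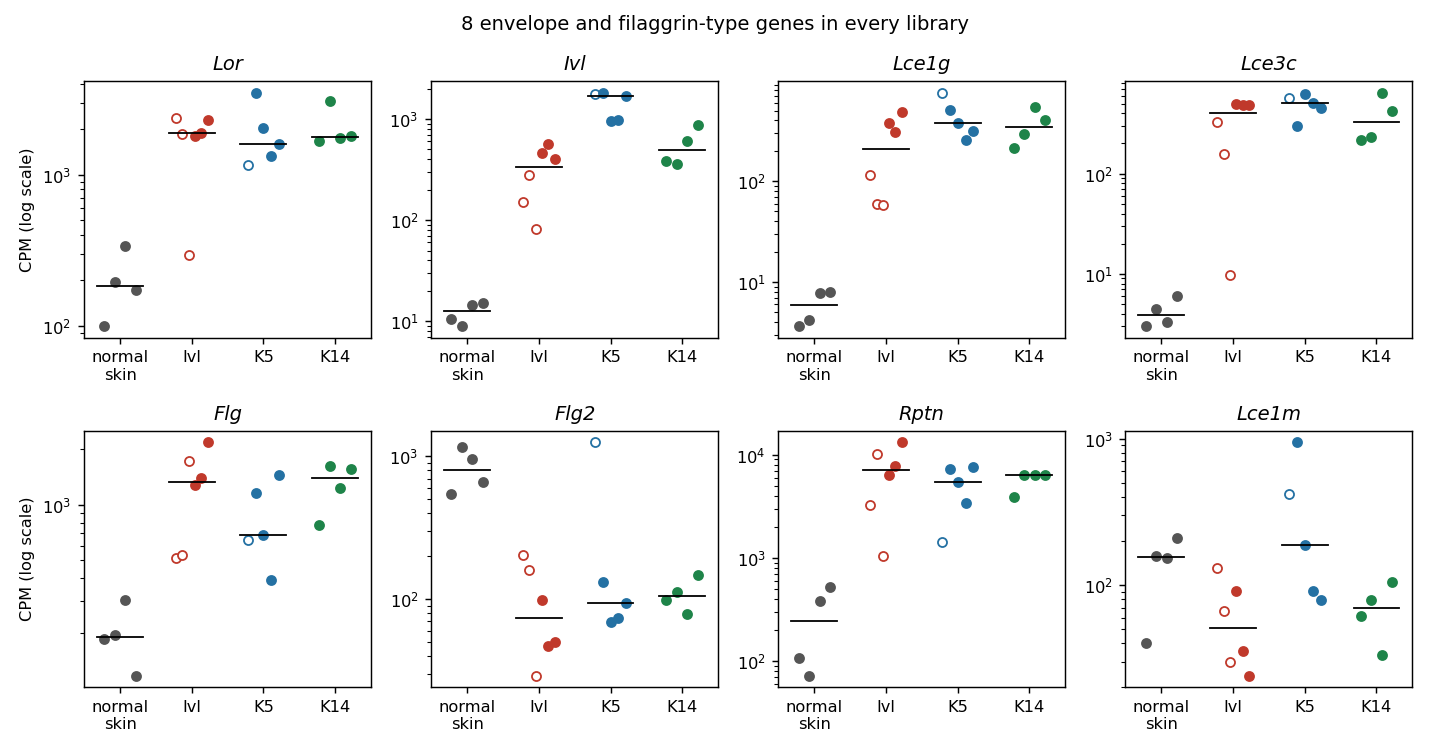
CPM (y axis, log scale) of 8 members in each library, by group (x axis). Open points are the 4 libraries that stood apart and the line is the group median. Lor, Ivl, Lce1g, Lce3c, Flg and Rptn are higher in tumours, apart from Lor in Ivl tumour 3 at 293 CPM, Flg2 is lower in all tumours but K5 tumour 1, and Lce1m overlaps skin.

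Lce1 genes, the largest family of late envelope proteins and the one that normal epidermis mainly uses, rose with a single exception, by differing amounts. Of 14 genes 13 rose in both comparisons, by log2 2.04 (Lce1l) to 5.31 (Lce1g) in Ivl tumours and by 2.43 (Lce1l) to 6.11 (Lce1g) in K5/K14 tumours. Family medians were 3.17 and 3.80. Lce1g (ENSMUSG00000027919) was at 3.65, 4.20, 7.74 and 7.93 CPM in the 4 skin samples. Its lowest, median and highest values were 57.5, 210 and 488 CPM in Ivl tumours and 215, 374 and 754 CPM in K5/K14 tumours, so that no tumour came near skin. The changes were 5.31 ± 0.68 (adjusted p = 2.1e-05) and 6.11 ± 0.69 (adjusted p = 2.5e-06). Lce1c, one of the more abundant members in skin at 33.8 to 67.4 CPM, rose by 2.1 ± 0.33 to 142 to 405 CPM in Ivl tumours (adjusted p = 6.9e-05). Between the most and the least abundant of the 13 genes CPM differed by 10.9 to 17.7 times within a skin library and by 4.34 to 9.60 times within a tumour library, so these genes lay closer together in tumours.

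Lce1m (ENSMUSG00000027912) was the exception. It lies apart from the other Lce1 genes, beyond the Lce3 genes and next to Crct1. Skin samples 1 to 4 had 40.04, 158, 154 and 208 CPM. Ivl tumours had a lowest, median and highest of 24.0, 50.7 and 131 CPM and K5/K14 tumours of 33.3, 90.6 and 943 CPM, so both groups overlapped skin, and K5 tumours 1 and 2 were the highest libraries. Its log2 fold change was -1.15 ± 0.80 in Ivl tumours (adjusted p = 0.24) and 0.66 ± 0.78 in K5/K14 tumours (adjusted p = 0.47). Within each library, however, Lce1m gave 17.5% to 36.4% of all Lce1 counts in skin and 0.494% to 14.0% in tumours, a share that did not overlap. Lce6a, the only member of its kind here, was at 4.29 to 8.41 CPM in skin and rose by 2.58 ± 0.51 in Ivl (adjusted p = 0.00062) and 2.67 ± 0.49 in K5/K14 tumours (adjusted p = 0.00021).

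Among the envelope proteins outside the Lce families, loricrin and involucrin both rose, involucrin by more. Lor was at 99.7, 194, 340 and 171 CPM in skin. It reached a lowest, median and highest of 293, 1877 and 2377 CPM in Ivl tumours and 1153, 1757 and 3486 CPM in K5/K14 tumours. Only Ivl tumour 3, at 293 CPM, fell within the range of skin. The log2 fold change of Lor was 3.124 ± 0.49 (adjusted p = 6.8e-05) and 3.31 ± 0.48 (adjusted p = 1.9e-05). The gene Ivl (ENSMUSG00000049128) was at 10.5, 8.95, 14.5 and 15.1 CPM in skin. It was at 81.4, 337 and 569 CPM in Ivl tumours and at 362, 956 and 1819 CPM in K5/K14 tumours (lowest, median and highest). Every tumour was above every skin sample, by 4.72 ± 0.63 in Ivl (adjusted p = 2.3e-05) and 6.42 ± 0.68 in K5/K14 tumours (adjusted p = 1.5e-06).

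Crct1, which codes for a small cysteine-rich protein, had the highest mean level per length of all members in K5/K14 tumours. It rose from 72.2, 103, 193 and 280 CPM in skin to a median of 1186 CPM in Ivl and 1395 CPM in K5/K14 tumours, by 2.60 ± 0.46 (adjusted p = 0.00019) and 3.1 ± 0.46 (adjusted p = 2.0e-05). Kprp, a keratinocyte proline-rich protein, rose by 1.74 ± 0.40 (adjusted p = 0.0021) and 2.26 ± 0.39 (adjusted p = 0.00011), from 40.8 to 123 CPM in skin to 148 to 401 and 161 to 588 CPM. Scaled by keratinocyte genes, Kprp no longer passed the test in Ivl tumours (0.35, adjusted p = 0.35) or in K14 tumours alone (0.85, adjusted p = 0.055). On the same scale Lce1l was lost in Ivl tumours (0.66, adjusted p = 0.086), Lce6a in K14 tumours (0.94, adjusted p = 0.082) and Flg in K5 tumours (0.79, adjusted p = 0.12). Lelp1 was barely detected, at 0.303 CPM at most in any library, and passed no test over all 19 libraries (-1.46, adjusted p = 0.31, and -1.96, adjusted p = 0.13). Within the 15 libraries its 3 Ivl tumours had no count and it fell (-5.84 ± 1.72, adjusted p = 0.012), a value set by 0 counts.

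Filaggrin and its closest relative moved apart. Flg (ENSMUSG00000102439) was at 185, 196, 305 and 117 CPM in skin, at 515, 1333 and 2184 CPM in Ivl and at 388, 1154 and 1630 CPM in K5/K14 tumours (lowest, median and highest). All tumours were above skin, and Flg rose by 2.66 ± 0.47 (adjusted p = 0.00022) and 2.40 ± 0.45 (adjusted p = 0.00023). Flg2 (ENSMUSG00000049133), filaggrin-2, was at 545, 1162, 957 and 659 CPM in skin. Ivl tumours had a lowest, median and highest of 29.0, 74.2 and 203 CPM, all below skin, and Flg2 fell by 3.09 ± 0.83 on the log2 scale (adjusted p = 0.0078).

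In K5/K14 tumours Flg2 ranged from 68.7 to 146 CPM in 8 libraries and stood at 1254 CPM in K5 tumour 1, above every skin sample. K5 tumour 1 is among the libraries that stood apart, and the part of the batch adjustment in its value was not tested. Flg2 fell by 1.86 ± 0.72 over all 19 libraries (adjusted p = 0.032), but not without skin sample 2 (-1.65, adjusted p = 0.089) or skin sample 3 (-1.78, adjusted p = 0.066). Within the 15 libraries, which leave out K5 tumour 1, Flg2 fell by 3.67 ± 0.37 in Ivl (adjusted p = 1.4e-06) and by 3.05 ± 0.25 in K5/K14 tumours (adjusted p = 9.7e-08), where 32.7% and 42.3% of all genes fell. For each 100 counts of Flg a library held 295 to 592 counts of Flg2 in skin, 1.68 to 39.4 in Ivl and K14 tumours and K5 tumours 2 to 5, and 196 in K5 tumour 1. These genes lie 52 kb apart from end to start, on the same strand.

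**Figure D3:**
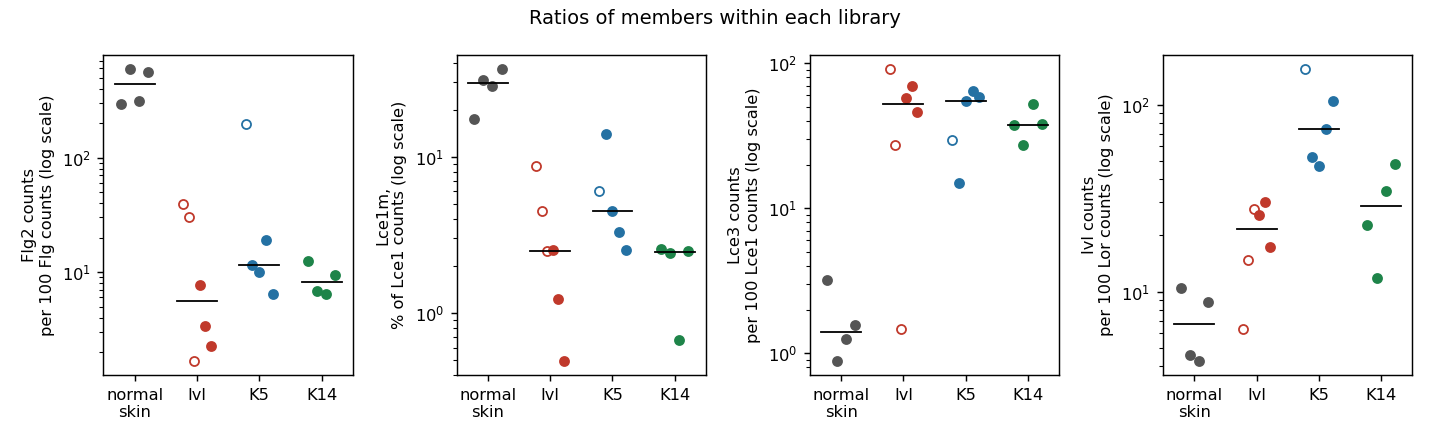
Ratios of members within each library (y axis, log scale) by group (x axis): Flg2 counts per 100 Flg counts, Lce1m as a percentage of Lce1 counts, Lce3 counts per 100 Lce1 counts, and Ivl counts per 100 Lor counts. Open points are the 4 libraries that stood apart. Skin samples hold 295 to 592 Flg2 counts per 100 Flg counts, above all tumours, and tumours hold 14.9 to 91.0 Lce3 counts per 100 Lce1 counts apart from Ivl tumour 3 at 1.46.

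Hornerin and repetin, which take part in the envelope beside filaggrin, also rose. Hrnr went from 140, 166, 263 and 203 CPM in skin to 342, 1394 and 2729 CPM (lowest, median and highest) in Ivl and 598, 1528 and 1990 CPM in K5/K14 tumours, a rise of 2.83 ± 0.48 (adjusted p = 0.00013) and 2.82 ± 0.46 (adjusted p = 6.1e-05). Rptn (ENSMUSG00000041984) was at 106, 72.0, 382 and 524 CPM in skin and had the highest median CPM of all members in both tumour groups. Its lowest, median and highest values were 1042, 7047 and 13173 CPM in Ivl and 1419, 6361 and 7688 CPM in K5/K14 tumours, with no overlap with skin. Rptn rose by 4.68 ± 0.74 (adjusted p = 8.1e-05) and 4.31 ± 0.71 (adjusted p = 7.2e-05), and gave 2.81% to 14.0% of the members' counts in skin against 7.14% to 56.7% in tumours. Crnn, cornulin, which is abundant in the oesophagus, did not pass the test: skin samples had 76.8, 0.461, 33.1 and 54.2 CPM, tumours 9.52 to 105 CPM, and the changes were 0.40 ± 0.81 (adjusted p = 0.69) and -0.05 ± 0.74 (adjusted p = 0.96).

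Trichohyalin and its relative Tchhl1 varied widely within groups. Tchh (ENSMUSG00000052415) was at 1972, 34.8, 829 and 957 CPM in skin samples 1 to 4. It was at 26.7, 1163, 551, 161, 72.6 and 401 CPM in Ivl tumours 1 to 6, at 87.1 to 183 CPM in K5 tumours, at 868 CPM in K14 tumour 1 and at 100 to 132 CPM in the other K14 tumours. The 3 other skin samples were high, skin sample 2 was as low as the lowest tumours, and the groups overlapped. The summed level of 7 keratins of the inner root sheath, where trichohyalin is made, was 2604, 5.41, 1393 and 1076 CPM in the same skin samples, 2.00 to 1469 CPM in Ivl tumours, 0.969 to 1.87 CPM in K5 tumours and 1066, 51.9, 2.04 and 1.46 CPM in K14 tumours. Skin sample 2, at 5.41 CPM, had almost no RNA of these keratins, and in K5 tumours Tchh remained at 87.1 CPM or more with these keratins near 0. None of the 7 keratins passed the test in either comparison with skin. The full list of 10 inner root sheath genes also held Padi3, Gata3 and Tgm3, which the epidermis uses outside the sheath as well. Its sum was 174 to 2972 CPM in skin, 937 to 2717 CPM in Ivl and 222 to 1579 CPM in K5/K14 tumours, with Tgm3 higher and Gata3 lower than skin in both comparisons, so the full list did not set skin apart, and the sum over keratins alone was chosen with the values known. Tchh fell by 2.22 ± 0.86 in K5/K14 tumours (adjusted p = 0.032), and did not pass the test in Ivl tumours (-1.26 ± 0.96, adjusted p = 0.28). The former call was lost without skin sample 1 (-1.57, adjusted p = 0.16) or 4, K5 tumour 2, 3 or 4, or K14 tumour 3 or 4 (adjusted p 0.050 to 0.053 for these 6). The log2 difference of Tchhl1 from skin was -1.47 ± 0.82 in Ivl tumours (adjusted p = 0.15) and -1.49 ± 0.73 in K5/K14 tumours (adjusted p = 0.086), and within the 15 libraries it fell by 1.93 ± 0.66 in K5/K14 tumours (adjusted p = 0.020). The part of hair follicle content in these values was not tested.

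**Figure D4:**
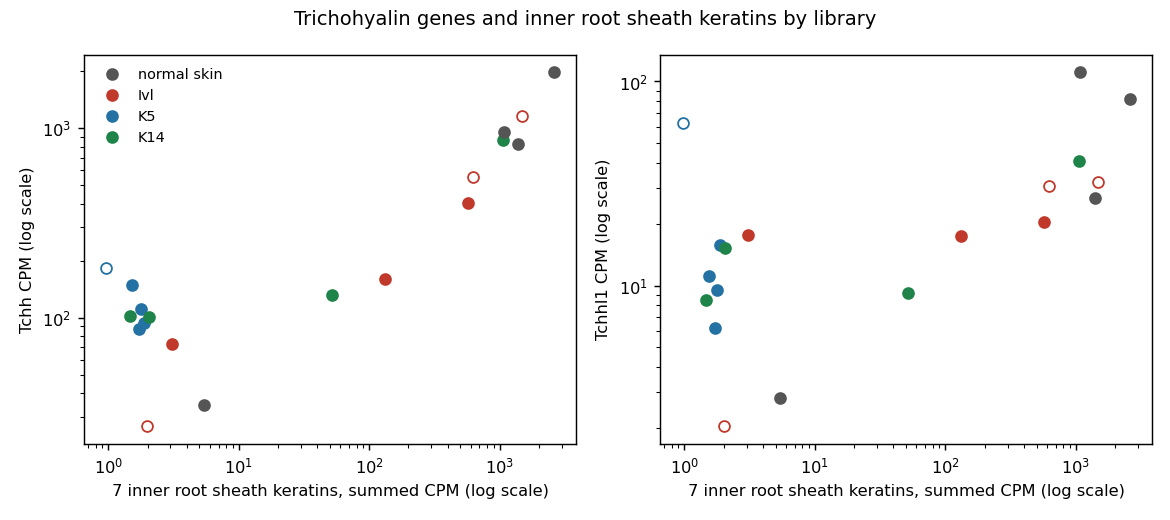
CPM of Tchh and of Tchhl1 (y axes, log scale) against the summed CPM of 7 inner root sheath keratins (x axis, log scale), 1 point per library, coloured by group. Libraries with 1066 CPM or more of these keratins have 829 CPM of Tchh or more, and among libraries near 0 Tchh ranges from 26.7 to 183 CPM.

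Levels per length put several members among the most abundant RNAs of the tumours. Per kilobase of exon, mean levels in K5/K14 tumours were 1753 CPM for Crct1, 1295 for Rptn, 1119 for Lor and 781 for Lce3c, the 33rd, 41st, 47th and 70th of 34672 genes with a known exon length. In Ivl tumours Rptn led with 1676 CPM per kilobase (32nd), ahead of Crct1 with 1243 and Lor with 986. In skin the order was Crct1 (205 CPM per kilobase, 85th), Tchh (163), Lce1m (148) and Lor (113), and Lce3c was at 7.42. Tchh and Lce1m were at 34.8 and 234 CPM per kilobase in K5/K14 tumours. Skin values of Crct1, Tchh, Lce1m and Lor varied by 3.41 to 56.7 times between samples, so the order among these 4 is not resolved.

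**Figure D5:**
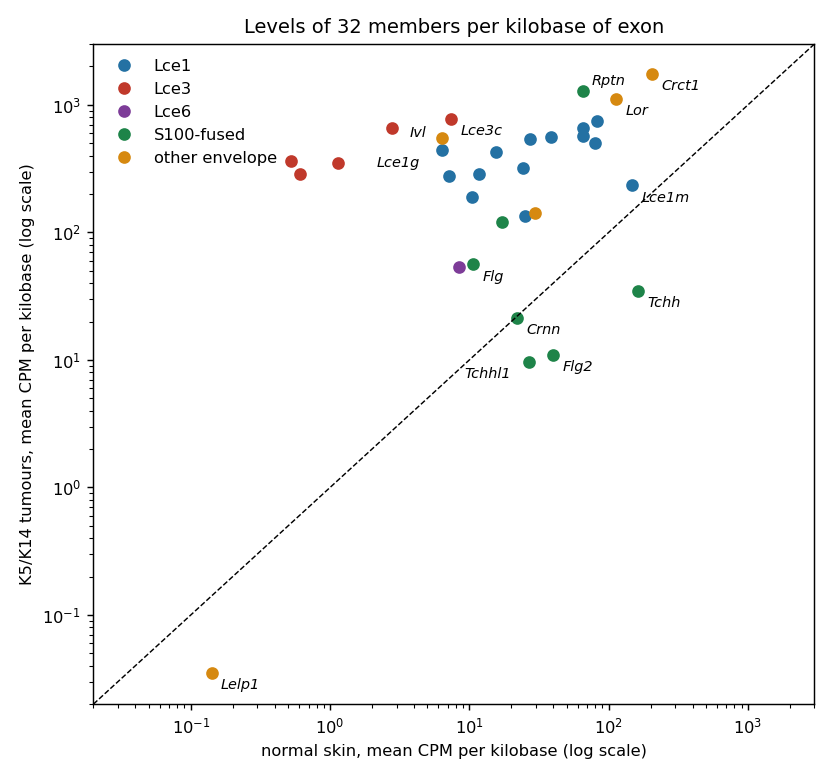
Mean CPM per kilobase of exon in K5/K14 tumours (y axis, log scale) against normal skin (x axis, log scale) for 32 members, coloured by family. The dashed line marks equal levels, and Lce3b, at 0 in skin, is left out. Flg2, Tchh, Tchhl1 and Lelp1 lie below the line, and Crnn lies just below it, at 22.1 in skin and 21.3 in tumours. Crct1, at 205 in skin and 1753 in tumours, is the highest.

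The enzymes that crosslink the envelope and process profilaggrin were examined next, as a list of 16 genes. Of these 12 rose and 0 fell in Ivl tumours, and 12 rose and 1 (Pcsk6) fell in K5/K14 tumours, with medians of 1.79 and 1.95. The 4 with the smallest adjusted p in Ivl tumours were Tgm1, the transglutaminase that joins envelope proteins (2.55 ± 0.31), Blmh, a protease that breaks filaggrin down to amino acids (2.97 ± 0.37), Prss8, a protease that acts on profilaggrin (1.41 ± 0.20), and Casp14, which cleaves filaggrin (3.0 ± 0.43), with adjusted p of 1.8e-05 to 3.3e-05. Tgm1, for example, was at 81.9, 63.4, 86.5 and 72.0 CPM in skin and at 251 to 586 CPM in Ivl tumours. In K5/K14 tumours they were Klk5 (3.31 ± 0.34), Blmh (3.53 ± 0.37), Prss8 (1.84 ± 0.20) and Klk7 (3.73 ± 0.42), Klk5 and Klk7 being proteases of the outer layers. Scaled by keratinocyte genes, 8 of 16 rose and 5 fell in each comparison, beside the shares of all genes given above for that scale.

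Other precursors and markers of differentiation moved mostly the same way. Among 10 other envelope precursors 8 rose and 0 fell in both comparisons, and Cnfn (3.61 ± 0.48), Sprr1b (5.97 ± 0.80), Cstb (1.91 ± 0.29) and Evpl (1.70 ± 0.27) had the smallest adjusted p in Ivl tumours. Of 11 suprabasal markers 9 rose in each, and 0 fell in Ivl and 2 (Krt2 and Krt77) in K5/K14 tumours. Of 24 factors linked to differentiation, 12 rose and 1 (Gata3) fell in Ivl tumours, and 14 rose and 4 (Gata3, Notch1, Vdr and Ahr) fell in K5/K14 tumours, Ovol1, Cebpb, Hopx and Ehf leading in Ivl and Cebpb, Hopx, Ovol1 and Grhl3 in K5/K14 tumours. With keratinocyte scaling, 5 of 24 factors rose and 13 and 12 fell, where 3.38% and 4.53% of all genes rose and 72.1% and 76.4% fell. Of 10 genes of mucosal epithelia, 9 rose in Ivl and 6 in K5/K14 tumours. Neutrophil markers were at a summed 9.41 to 37.6 CPM in skin, 103 to 6578 CPM in Ivl and 1593 to 6351 CPM in K5/K14 tumours, where 5 and 6 of 10 rose and 0 fell. Of 10 skeletal muscle markers 0 passed the test in Ivl tumours and 10 fell in K5/K14 tumours. Within the 15 libraries 3 fell in Ivl and 10 in K5/K14 tumours. The part of these cells in the members' values was not tested.

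Ivl tumours and K5/K14 tumours differed little in these genes. Of 33 members 0 were higher and 1, the gene Ivl, was lower in Ivl tumours, where 1.77% of all genes were higher and 0.593% lower. No member separated the groups without overlap (0.312% and 0.343% of all genes did). Within the 15 libraries 0 members were called in either direction, as were 0.213% and 0.197% of all genes, and again 0 had no overlap (2.34% and 2.53%). The gene Ivl stood at 151, 276, 81.4, 463, 569 and 398 CPM in Ivl tumours 1 to 6, against 956 to 1819 CPM in K5 and 362 to 865 CPM in K14 tumours, so Ivl tumours overlapped K14 but not K5 tumours. Its log2 difference was -1.70 ± 0.44 (adjusted p = 0.047). Within the 15 libraries the difference was -1.0 ± 0.45 (adjusted p = 0.42). The call was also lost when any of 14 single libraries was left out (adjusted p 0.051 to 0.091), namely Ivl tumours 1, 2, 3 or 6, any K5 tumour, K14 tumours 3 or 4, or skin samples 1, 3 or 4. DESeq2 called Ivl (adjusted p = 0.0027) and, in addition, Lce1a2, Lce1k and Lce1m as lower in Ivl tumours. At an unadjusted p under 0.05 there were 9 members over 19 libraries, 8 of the 14 Lce1 genes, all lower, and the gene Ivl, where 21.1% of all genes passed in either direction. The median difference of the Lce1 genes was -0.68, with Ivl tumours 1, 2 and 3 at the lower end, and within the 15 libraries 13 of 14 lay between -0.32 and 0.42. For Lor the difference was -0.18 ± 0.35, for Flg 0.27 ± 0.34, for Rptn 0.37 ± 0.48 and for Lce3c -0.44 ± 0.50. Among the enzymes, Klk5 (-1.13 ± 0.26, adjusted p = 0.032) and Klk7 (-1.30 ± 0.31, adjusted p = 0.036) were lower in Ivl tumours. Neither passed within the 15 libraries (-0.82, adjusted p = 0.31, and -0.87, adjusted p = 0.39).

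No member differed between K5 and K14 tumours by edgeR's test, which called 0 of 32031 genes. At an unadjusted p under 0.05 there were 2 members and 1945 genes, and DESeq2 called 0 members, 59 genes as higher and 114 as lower. The 2 members were Ivl and Lce1m. All K5 tumours (1784, 1819, 956, 985 and 1675 CPM) were above all K14 tumours (381, 362, 605 and 865 CPM) for the gene Ivl, the only member without overlap, where 2.04% of all genes had K5 tumours all higher and 2.4% all lower. Within the 15 libraries edgeR called 0 members (0.0219% of all genes higher and 0.0313% lower), and Ivl was again the 1 member without overlap (3.44% and 3.7% of all genes). The log2 difference for Ivl was 1.38 ± 0.44 (adjusted p = 0.69), and 1.30 ± 0.30 within the 15 libraries (adjusted p = 0.16). Relative to loricrin, K5 tumours held 47.1 to 155 counts of Ivl per 100 counts of Lor, K14 tumours 11.8 to 48.1, Ivl tumours 6.33 to 30.0 and skin 4.27 to 10.5. Lce1m differed by 2.30 ± 0.74 (adjusted p = 0.70), with K5 tumours at 79.0 to 943 CPM and K14 tumours at 33.3 to 104 CPM. Taken alone, each group had 27 members higher than skin and 1 lower, Tchh in K5 tumours and Flg2 in K14 tumours, where 22.2% and 20.6% of all genes were higher and 33.5% and 25.9% lower. In K5 tumours, Tchh lost its call without K5 tumour 2 or 4 or skin sample 1 (adjusted p 0.051 to 0.082), and Flg2 was also lower once K5 tumour 1 was left out (-3.17, adjusted p = 0.00014).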

How the data were processed

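RNA from 15 tumours and 4 samples of normal skin was measured by paired-end sequencing of strand-specific poly(A) libraries, 1 per sample. Per the labels and methods, the authors trimmed reads (Trim Galore, FastQC 0.11.8), aligned them to GRCm38 with HISAT2 2.1.0, counted them per gene with featureCounts of Subread 1.6.3 and adjusted the table for sequencing batch with ComBat-seq. The deposited values are therefore estimated counts, although whole numbers (rounding changed none), where plain counts had been assumed. The batch of each library is not in the labels.

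Genes were kept where any library held 5 counts or more. TMM scaling and the quasi-likelihood F test (robust, two-sided) came from edgeR 4.0.16 with limma 3.58.1 in R 4.3.3, with an adjusted p under 0.05 as the threshold. Ivl, K5/K14 and skin were fitted as 3 groups, and K5 and K14 apart in a fit of 4 groups. The groups come from the sample titles. SE is the log2 fold change divided by the root of F. CPM is the count over the effective library size, which ran from 39498406 to 65303131 in tumours and from 75841642 to 106722223 in skin. It was above the library's total in every skin sample and in Ivl tumours 2 and 3, and below it in the other tumours. TMM scaling therefore lowered CPM in skin and raised it in most tumours. Libraries of a group were counted as replicates. The labels do not say that each came from another animal, so p-values measure the spread between these samples. None of 37 pairs within a group agreed as closely as sampling noise would give (chi-square of 28.7 or more for each degree of freedom). SE includes the spread between libraries, while the floor used for Lce3b covers counting error only and not the batch adjustment.

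Alternatives were DESeq2 1.42.0 (test or size factors), other filters, the 15 libraries, the set of 4 as a covariate, keratinocyte scaling, a replicate block and leaving out each library. The fits were tested on simulated data. The members, lists and alternatives were chosen with earlier results of these data known. Named were all members and, of a list, up to 4 genes with the smallest adjusted p, and those that fell where few did. Sequences follow RefSeq on GRCm38.p6, and Crct1, Kprp and Lce1f were not matched. Symbols and positions follow GENCODE on GRCm38.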

Additional observations from a re-analysis of the deposited data

Results flagged for a closer look

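Dixon's criterion was applied to 132 groups of 4 to 6 samples (33 members in 4 groups). In 20 the highest or lowest library was far from the others. Chance gives about 1 in 20 for independent groups, but the members share the same libraries, so these groups are not independent. Skin sample 1 held 5 of the flags and Ivl tumour 3 held 4. Ivl tumour 3 was the lowest Ivl tumour at 293 CPM for Lor, 0.827 for Lce3a, 0.352 for Lce3b and 9.86 for Lce3c, and the other 5 were at 1800 or more for Lor and at 56.5 or more for Lce3a. Skin sample 1 was the lowest skin sample for 5 Lce1 genes, at 35.2 CPM for Lce1a1, 21.7 for Lce1b, 23.8 for Lce1a2, 33.8 for Lce1c and 12.9 for Lce1f. K14 tumour 1 was low for Hrnr (787 CPM) and Rptn (3901 CPM) and high for Tchh (868 CPM). K5 tumour 1 was high for Flg2 (1254 CPM, the others at most 133), K14 tumour 2 for Lor (3078 CPM), and Ivl tumour 1 was low for Tchhl1 (2.04 CPM). Skin sample 2 had 0.461 CPM of Crnn. Among values near 1 CPM or below, Lelp1 was highest in Ivl tumour 2 (0.246 CPM), K5 tumour 2 (0.0760 CPM) and skin sample 2 (0.303 CPM), and Lce3e was at 1.26 CPM (135 counts) in skin sample 3 and at 0 counts in the other 3.

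The rise of the gene Ivl over skin differed between Ivl and K5/K14 tumours, by -1.70 on the log2 scale (adjusted p = 0.047, edgeR). The skin samples cancel out of this difference, which is that between the tumour groups. Over the alternatives its adjusted p ranged from 0.0027 to 0.47.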

How the results depend on the processing

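The number of members higher than skin was 25 to 27 under every alternative run, and no called member changed direction. Numbers of lower members moved. In Ivl tumours (1 lower) there were 2 within the 15 libraries, 5 with keratinocyte scaling and 5 with both, a combination chosen after seeing the data. In K5/K14 tumours (2 lower) there were 3 by DESeq2, within the 15 libraries and with the set of 4 as a covariate, which added Tchhl1 (adjusted p 0.020 to 0.044), and 4 with keratinocyte scaling, 4 with both and 1 with the replicate block, where Tchh was lost (adjusted p = 0.062). Against K5/K14 tumours, Ivl tumours had 1 lower member, 4 by DESeq2 and 0 without a filter, within the 15 libraries, with the set of 4 as a covariate, with both, or with the replicate block. For K5 tumours against skin (1 lower) there were 3 within the 15 libraries, 3 with the covariate, 4 with keratinocyte scaling, 4 with both, 2 with the replicate block and 2 with K5 and K14 merged. For K14 tumours (1 lower) there were 4 with keratinocyte scaling, 5 with both and 2 merged. The cause was not tested. Leaving out single libraries gave 27 to 27 higher members in each comparison with skin, and 1 to 2 lower in Ivl, 1 to 3 in K5/K14, 0 to 3 in K5 and 1 to 2 in K14 tumours. Between tumour groups it gave 0 to 0 higher and 0 to 1 lower in Ivl tumours, and 0 to 0 for K5 against K14.

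Deviations from the group means were compared between libraries of different groups by replicate number. The 25 pairs with the same number had correlations of -0.39 to 0.47 (median -0.056), 10 of them over 0.1. The 109 pairs with different numbers had correlations of -0.73 to 0.58 (median -0.0044), 37 of them over 0.1. This cannot exclude that replicate numbers pair the samples, since deviations within a group are tied to each other. In K5 tumours the replicate block lost Tchh and added Flg2 and Lelp1 as lower, and it changed no other call than those named. Batch adjustment limits low values such as Lce3 in skin and Lelp1.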
